A study of Mus musculus with 6 samples.

Results

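The genes described here encode 10 proteins that the liver secretes into blood plasma: Alb, Ahsg, Afp, Apoa1, Apoa2, Apob, Fgb, Serpina1a, Pzp and Trf. They were picked by symbol, with their levels in these pancreata already known, and all 10 were found among the 54735 gene symbols measured. Whole pancreas was taken from mouse embryos at e16.5 on a mixed C57Bl6 and 129SV background, and total RNA was sequenced. All 6 embryonic samples carried Neurog3:cre, a Cre recombinase driver named for the transcription factor gene of endocrine progenitors. The 3 control samples had the genotype Neurog3:cre, and the 3 RARdn samples had the genotype Neurog3:cre;RARdnfl/fl, in which a floxed RARdn allele was added. The labels do not spell out RARdn, a name commonly used for retinoic acid receptors that act in a dominant-negative way, and reads of the allele were not analysed here. The labels do not say whether a sample came from 1 embryo or several, or whether samples shared a litter, so p-values measure only the spread between these samples, which may be technical.

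Hepatocytes make most circulating plasma proteins, and the programme is switched on in the fetal liver bud, which arises beside the ventral pancreas from the same foregut endoderm. Alpha-fetoprotein is the fetal counterpart of albumin and is also made by the yolk sac, and apolipoproteins are made by liver, intestine and yolk sac. The transcription of these genes in liver depends on HNF4, FOXA and C/EBP factors, several of which are also active in the pancreas.

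The promoters of the genes are shown because the levels of these genes moved together over the libraries. RefSeq promoters (GRCm38.p6, 250 bases before to 50 after the start site) were matched for 9 of the 10 genes, and Trf was the other. The stretches below are those of Alb and Afp, the genes with the highest levels in RARdn 1 and RARdn 2, of Apoa1, and of Ahsg, whose proportions differed most clearly between libraries. Capitals mark matches on either strand to the motif GTTAAT, the FOXA motif TGTTTNC, the HNF4 motif AAAGTCC, the C/EBP motif TTGCNNAA or the nuclear receptor core site AGGTCA.
Alb, chr5:90460620-90460919, plus strand: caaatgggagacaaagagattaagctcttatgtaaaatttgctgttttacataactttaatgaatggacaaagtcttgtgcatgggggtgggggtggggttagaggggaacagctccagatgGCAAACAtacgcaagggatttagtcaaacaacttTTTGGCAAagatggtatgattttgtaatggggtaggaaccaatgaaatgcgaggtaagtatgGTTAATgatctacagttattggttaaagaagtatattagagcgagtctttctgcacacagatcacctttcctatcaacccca
Afp, chr5:90490464-90490763, plus strand: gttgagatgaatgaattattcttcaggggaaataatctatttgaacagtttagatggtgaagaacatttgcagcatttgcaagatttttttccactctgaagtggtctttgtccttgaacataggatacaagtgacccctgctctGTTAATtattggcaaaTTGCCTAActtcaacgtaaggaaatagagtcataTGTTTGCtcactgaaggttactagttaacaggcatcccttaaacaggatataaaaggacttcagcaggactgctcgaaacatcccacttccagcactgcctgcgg
Apoa1, chr9:46228380-46228679, plus strand: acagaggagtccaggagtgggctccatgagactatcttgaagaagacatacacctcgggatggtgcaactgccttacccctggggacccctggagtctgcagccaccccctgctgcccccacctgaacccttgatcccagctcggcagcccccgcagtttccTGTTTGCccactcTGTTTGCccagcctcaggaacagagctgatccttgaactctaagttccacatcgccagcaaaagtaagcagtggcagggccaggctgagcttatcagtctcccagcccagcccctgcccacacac
Ahsg, chr16:22891765-22892064, plus strand: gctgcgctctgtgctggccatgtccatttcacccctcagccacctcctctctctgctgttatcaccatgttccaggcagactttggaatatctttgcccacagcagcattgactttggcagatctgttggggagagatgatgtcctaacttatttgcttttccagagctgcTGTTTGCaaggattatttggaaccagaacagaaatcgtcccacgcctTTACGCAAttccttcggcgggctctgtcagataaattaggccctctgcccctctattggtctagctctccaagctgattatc
The FOXA motif stood in 8 of the 9 member promoters and in 20.5% of all 32851 promoters in the table, Pzp being the one without it. GTTAAT stood in 5 of 9 (Afp, Alb, Fgb, Pzp and Serpina1a) and in 7.10% of all promoters. The C/EBP motif stood in 6 of 9 (Afp, Ahsg, Alb, Apob, Fgb and Serpina1a) against 10.8%. The HNF4 motif stood in 1 of 9 (Pzp) against 4.21%, and the nuclear receptor core site, a sequence that retinoic acid receptors share with many others, in 0 of 9 against 16.3%. In the Alb window the GTTAAT match ran from 32 to 27 bases before the annotated start site, and in the Afp window from 105 to 100 bases before it. The RefSeq start site of Ahsg lies 738 bases from the 5′ end of the gene in GENCODE, so its window falls inside the span of the gene given further on, while those of Alb, Afp and Apoa1 lie 27, 23 and 50 bases from it. These are matches of letters and not sites of binding.

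Counts in genes were 35256531 to 52015498 per library, so 3 counts, the limit used for a gene listed at 0, were worth 0.0577 to 0.0851 counts-per-million (CPM). The tissue label was checked against 6 acinar markers (Cpa1, Cela1, Cela2a, Prss2, Ptf1a and Pnlip), which summed to 25129 to 28036 CPM in controls and to 10465, 35249 and 37841 CPM in RARdn 1, 2 and 3. RARdn 1 therefore stood apart by its low acinar level, and its 20 listed acinar genes took 7.27% of the counts, against 17.6% to 18.9% in controls and 21.4% and 26.4% in RARdn 2 and 3. The labels give no sex, but control 1 and control 3 had 1150 and 1089 CPM of Xist, and control 2 and all RARdn libraries had 0.313 CPM or less. The Y-linked gene Ddx3y was at 0 in control 1 and 3 and at 41.6 to 57.8 CPM in the other 4. Sex was thus partly confounded with genotype, with control 2 the only control of the same sex as the RARdn libraries. In whole tissue, a smaller number of cells of a type and less RNA per cell cannot be told apart.

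The plasma protein transcripts were carried by 2 of the 6 libraries, both RARdn. The 10 genes together made up 24.2, 23.6 and 28.4 CPM in control 1, 2 and 3. They made up 1575, 286 and 24.8 CPM in RARdn 1, 2 and 3. RARdn 1 was thus 61.9-fold and RARdn 2 11.3-fold above the control mean of 25.4 ± 2.62 CPM (SD, n = 3), while RARdn 3 lay at 0.976 of it, inside the control range. Among the 4 libraries with Y-linked counts, the levels were 23.6 CPM in control 2 and 1575, 286 and 24.8 CPM in RARdn. RARdn 1 held 80.3% and RARdn 2 held 14.6% of the summed CPM of all 6 libraries. The ratio of group means, 24.7, is given as a description only, because the genes had been chosen on this contrast. It was 6.11 without RARdn 1, 31.4 without RARdn 2 and 36.6 without RARdn 3, and 0.976 with RARdn 3 alone. For 8 of the 10 genes RARdn 1 and RARdn 2 were each at least 2-fold above every other library, a pattern shown by 1.25% of the 25200 genes with 10 or more counts over the 6 libraries. Serpina1a and Trf had the same order but were 1.80-fold and 1.78-fold above the next library in RARdn 2. Only for Pzp did all 3 RARdn libraries lie above every control, which 7.22% of the 25200 genes did.

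**Figure D1:**
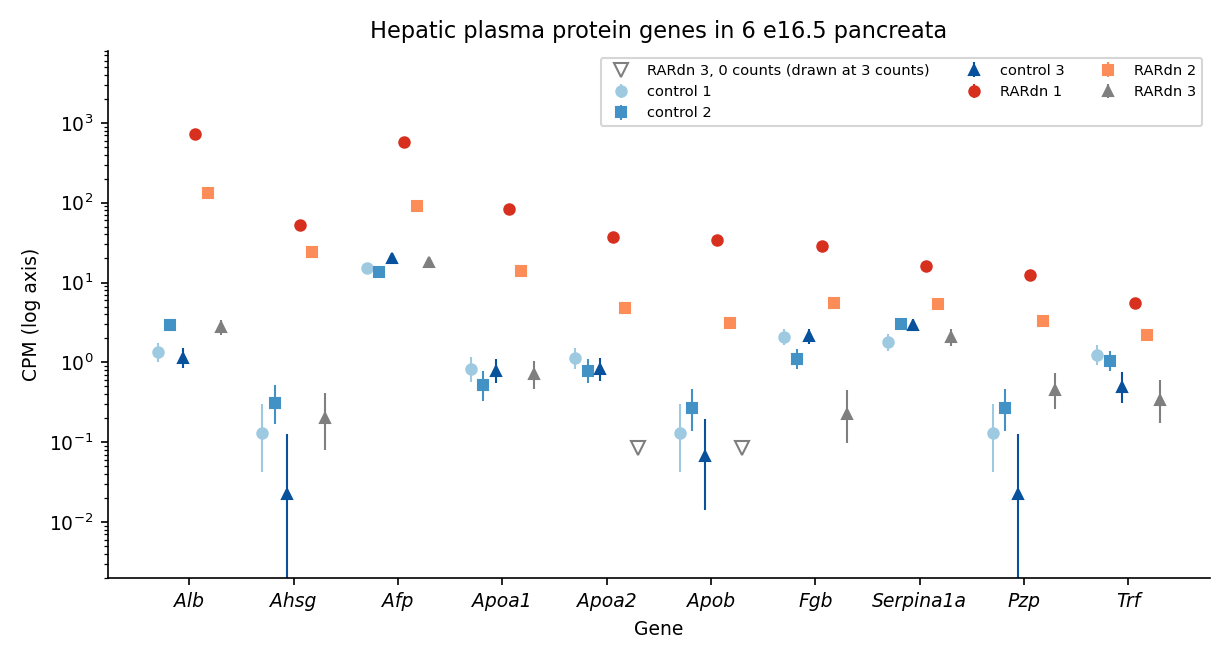
CPM of each gene (log axis) in the 3 control libraries (blue) and in RARdn 1 (red), RARdn 2 (orange) and RARdn 3 (grey), with 95% exact Poisson intervals for counting error; open triangles mark genes at 0 counts, drawn at 3 counts. For all 10 genes the red point is highest and the orange point next, while RARdn 3 lies among or below the controls except for Pzp.

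Alb and Afp, the neighbouring genes of serum albumin and its fetal counterpart on chromosome 5, had the highest levels per kilobase of exon in RARdn 1 and RARdn 2. Alb (chr5:90460897-90476602, GRCm38) was at 1.35, 2.93 and 1.15 CPM in control 1, 2 and 3. It was at 728, 134 and 2.75 CPM in RARdn 1, 2 and 3. RARdn 1 was 403-fold and RARdn 2 74.0-fold above the control mean, and RARdn 3 lay within the control range. Afp (chr5:90490737-90508907, 14134 bases downstream) was at 15.4, 13.4 and 20.01 CPM in controls and at 576, 90.2 and 18.1 CPM in RARdn 1, 2 and 3. Afp was thus present in every library, and its excess was 35.4-fold in RARdn 1 and 5.55-fold in RARdn 2. The other genes of the albumin family, Gc and Afm, lie on the same chromosome and were read in every library, with ratios of RARdn 1 to RARdn 2 of 1.45 and 1.54. Gc, the vitamin D binding protein gene, was at 306 to 417 CPM in controls and at 290, 200 and 322 CPM in RARdn 1, 2 and 3. Afm, the afamin gene, which was set beside them after its values were seen, was at 8.77 to 10.8 CPM per kilobase of exon in controls and at 8.001, 5.20 and 7.24 in RARdn 1, 2 and 3. On this scale, on which genes can be compared, Alb was at 311, 57.2 and 1.17 in the same RARdn libraries, so in RARdn 1 it stood above Gc (157) and in RARdn 2 and 3 below it (108 and 175).

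Trf encodes transferrin, the iron carrier of plasma (chr9:103204001-103230444). Its level was 1.24, 1.05 and 0.496 CPM in control 1, 2 and 3 and 5.61, 2.21 and 0.340 CPM in RARdn 1, 2 and 3. RARdn 1 was 6.03-fold and RARdn 2 2.38-fold above the control mean, the smallest RARdn 1 excess of the 10 genes. Of the 50-base stretches of its longest transcript 79.8% are shared with Gm20425, an annotated gene on the same strand that covers 63.5% of its exon bases and was at 0 counts in every library. Reads in such stretches may have been left out as belonging to more than 1 gene, so the levels of Trf are uncertain.

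Ahsg encodes fetuin-A, a carrier that keeps calcium phosphate in solution (chr16:22891277-22899449). It was almost unread in controls, with 5, 14 and 1 counts (0.130, 0.313 and 0.0226 CPM), and in RARdn 3 with 7 counts (0.199 CPM). RARdn 1 had 2546 counts (53.1 CPM) and RARdn 2 had 1238 counts (23.8 CPM), which were 343-fold and 154-fold above the control mean. An antisense gene, Gm30505, overlaps 2.82% of its exon bases.

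The 3 apolipoprotein genes encode proteins of high density lipoprotein, Apoa1 and Apoa2, and of very low and low density lipoprotein, Apob. Apoa1 (chr9:46228580-46230466) was at 0.830, 0.514 and 0.789 CPM in controls and at 83.2, 13.9 and 0.709 CPM in RARdn 1, 2 and 3. Its RARdn 3 value lay within the control range. Apoa2 (chr1:171225054-171226379) was at 1.14, 0.782 and 0.835 CPM in controls, at 37.2 and 4.83 CPM in RARdn 1 and 2, and listed at 0 in RARdn 3. The mean control level of Apoa2 corresponds to 32.4 counts at the depth of RARdn 3. With 116 counts pooled over the controls, their level was at least 10.7-fold higher than that of RARdn 3, taken at the floor of 3 counts per library. Apob (chr12:7977648-8016835) had 5, 12 and 3 counts in controls, 1615 and 163 in RARdn 1 and 2, and 0 in RARdn 3, where 5.47 counts corresponded to the control mean. RARdn 1 was 117-fold above the control mean for Apoa1, 40.4-fold for Apoa2 and 217-fold for Apob, and RARdn 2 was 19.6-fold, 5.25-fold and 20.2-fold above it.

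Fgb encodes the beta chain of fibrinogen, the clotting protein built of alpha, beta and gamma chains (chr3:83040141-83049863). It was at 2.10, 1.12 and 2.12 CPM in controls and at 28.8, 5.54 and 0.227 CPM in RARdn 1, 2 and 3. RARdn 1 was 16.2-fold and RARdn 2 3.11-fold above the control mean of Fgb. RARdn 3 was at 0.128 of it, and its ratio to the 3 pooled controls had an exact 95% interval of 0.0549 to 0.258 for counting error alone. The genes of the other chains, Fga and Fgg, lie beside it on chromosome 3 and allow the chains to be compared per kilobase of exon. In RARdn 1 the levels were 10.6 CPM per kilobase for Fga, 7.57 for Fgb and 7.198 for Fgg, and in RARdn 2 they were 1.48, 1.45 and 1.33. In control 1, 2 and 3 Fgb was at 0.551, 0.293 and 0.556 CPM per kilobase, while Fga was at 0.00861, 0.0371 and 0.00749 and Fgg at 0.0124, 0.0214 and 0. The 3 chains thus stood at like levels in both libraries that carried them, and Fgb stood alone in the controls. In RARdn 3 there were 8 counts of Fgb and none of Fga or Fgg.

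The protease inhibitor genes were Serpina1a, for alpha-1-antitrypsin, and Pzp, for an inhibitor of the alpha-2-macroglobulin family. Serpina1a (chr12:103853589-103863562) was at 1.79, 3.00 and 2.93 CPM in controls and at 16.1, 5.38 and 2.07 CPM in RARdn 1, 2 and 3. RARdn 1 was 6.25-fold and RARdn 2 2.09-fold above the control mean. Of its 50-base stretches 67.4% are shared with other genes, chiefly its paralogs, so the split between paralogs is uncertain. The 5 paralogs Serpina1a to Serpina1e summed to 11.6, 25.2 and 24.8 CPM in controls and to 92.2, 31.8 and 16.51 CPM in RARdn 1, 2 and 3. Serpina1a took 11.8% to 15.4% of that sum in controls, 17.4% in RARdn 1, 16.9% in RARdn 2 and 12.5% in RARdn 3. Serpina1c was an exception to the order of the others, at 1.92, 5.25 and 5.50 CPM in controls and at 4.80, 2.11 and 3.35 CPM in RARdn 1, 2 and 3. Pzp (chr6:128483567-128526720) had 5, 12 and 1 counts in controls and 597, 173 and 16 in RARdn 1, 2 and 3, and an antisense gene, Gm10069, overlaps 4.72% of its exon bases. RARdn 1 was 88.9-fold and RARdn 2 23.7-fold above the control mean of Pzp, and the RARdn 3 level of 0.454 CPM was 3.24-fold that mean.

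RARdn 3 resembled neither of the libraries with high levels. Against the 3 controls, 5 of the 10 genes lay within the control range in RARdn 3 (Alb, Ahsg, Afp, Apoa1 and Serpina1a), 1 above it (Pzp) and 4 below it (Apoa2, Apob, Fgb and Trf). Of the 25200 genes with 10 or more counts, 55.1% were below every control in RARdn 3, so a count of 4 of 10 is no result about these genes.

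The make-up of the transcripts differed between the libraries that carried them and the rest. Counted per kilobase of exon, Alb made up 46.7% and 47.3% of the 10 genes in RARdn 1 and RARdn 2 and 4.49% to 13.7% in the other 4 libraries. Afp made up 25.7% and 22.2% in RARdn 1 and RARdn 2, and 41.6% to 54.3% in controls and 62.6% in RARdn 3. Alb counts per Afp count were 0.0875, 0.219 and 0.0575 in control 1, 2 and 3 and 0.152 in RARdn 3. The same ratio was 1.26 (exact 95% interval 1.24 to 1.28) in RARdn 1 and 1.48 (1.43 to 1.54) in RARdn 2. Serpina1a made up 9.83% to 17.1% in controls and 13.2% in RARdn 3, against 1.32% and 2.43% in RARdn 1 and 2. Apoa2 made up 14.2% to 21.4% in controls and 10.4% and 7.44% in RARdn 1 and 2, with none in RARdn 3.

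**Figure D2:**
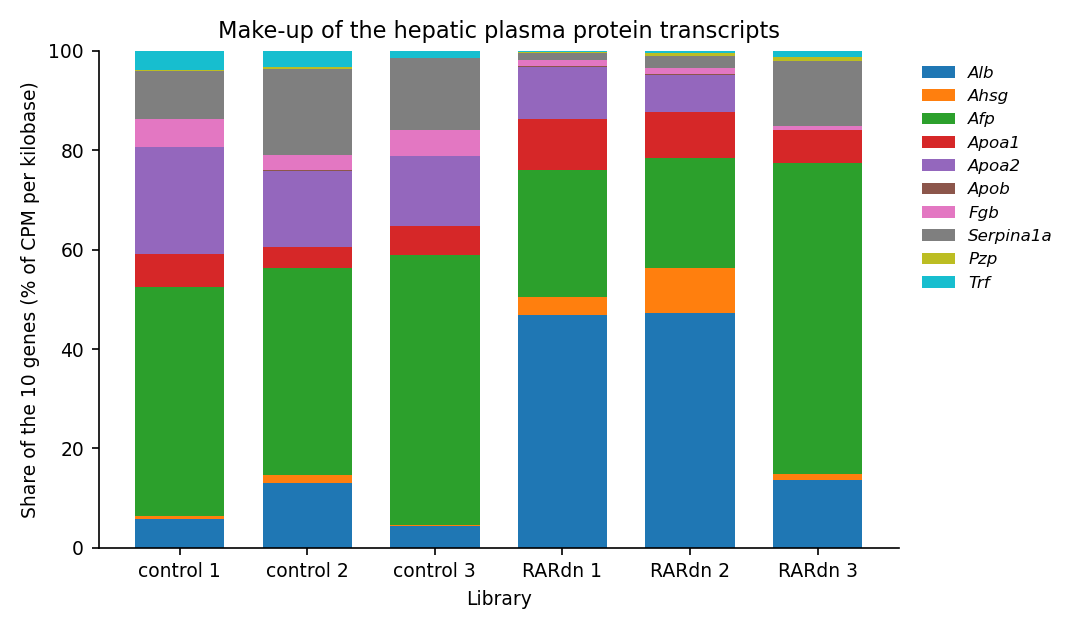
Stacked bars give the share of each of the 10 genes in their summed CPM per kilobase of exon, for each of the 6 libraries. Alb (blue, bottom) takes 46.7% and 47.3% in RARdn 1 and RARdn 2, and Afp (green) is the largest share in the 3 controls and in RARdn 3.

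RARdn 1 and RARdn 2 also differed from each other in proportions, beyond counting error. The ratio of RARdn 1 to RARdn 2 was 5.44 for Alb (exact 95% interval 5.30 to 5.58), 6.39 for Afp (6.19 to 6.59), 5.98 for Apoa1 (5.52 to 6.48) and 5.21 for Fgb (4.58 to 5.93). It was higher for Apoa2, at 7.71 (6.75 to 8.83), and highest for Apob, at 10.8 (9.15 to 12.7). It was lower for Pzp at 3.75, Serpina1a at 2.98 and Trf at 2.54, and lowest for Ahsg at 2.23 (2.08 to 2.39). Ahsg stood at 0.0729 counts per Alb count in RARdn 1 (0.0700 to 0.0759) and at 0.178 in RARdn 2 (0.167 to 0.189). Apob stood at 0.405 counts per Apoa1 count in RARdn 1 and at 0.225 in RARdn 2. With the mean control level taken off both libraries the ratio was 3.66 for Trf, 4.80 for Serpina1a, 2.24 for Ahsg and 11.3 for Apob. Each library is a single sample, so these intervals cover counting error and not the spread between animals.

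**Figure D3:**
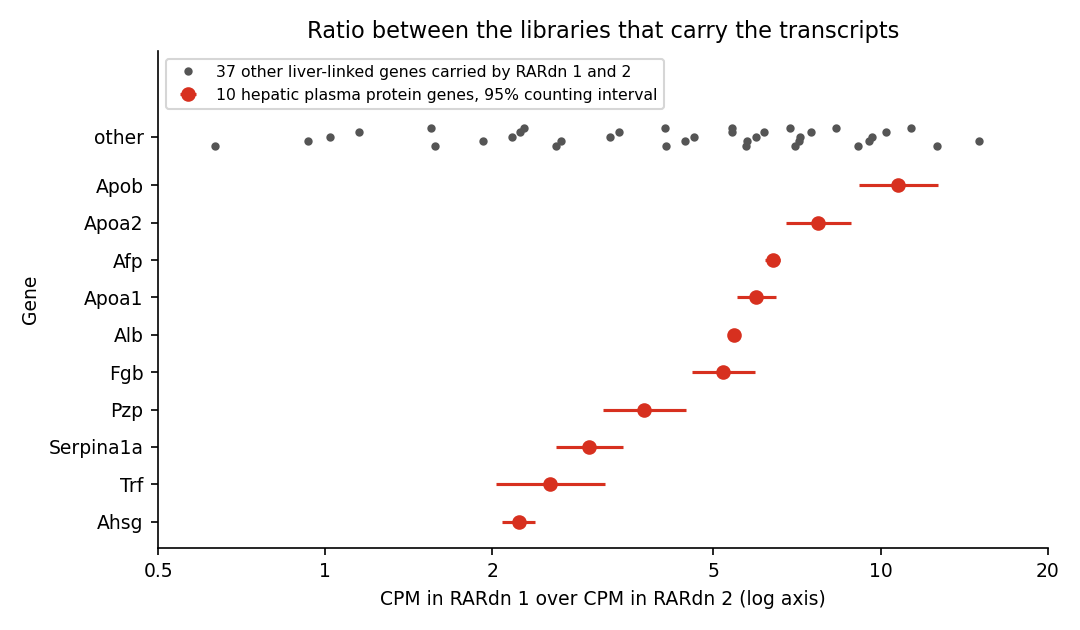
Points give the CPM in RARdn 1 over the CPM in RARdn 2 (log axis) for the 10 genes, with exact 95% intervals for counting error, and in the top row for 37 other liver-linked genes that were at least 2-fold higher in both libraries than in all others. The 10 genes run from 2.23 for Ahsg to 10.8 for Apob, with intervals that separate the ends.

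The same genes were set beside 157 other liver-linked genes on 6 lists, chosen with earlier results of these data known. Of the 141 with 10 or more counts, 37 (26.2%) were at least 2-fold higher in both RARdn 1 and RARdn 2 than in every other library, against 1.25% of all genes. By role these were 17 of 32 genes for other plasma carriers, clotting factors and inhibitors, 13 of 43 for hepatocyte enzymes, 4 of 22 for acute phase and complement proteins, 2 of 16 for lipoprotein metabolism, 1 of 24 for liver transcription factors and none of the 4 Serpina1 paralogs. Their median ratio of RARdn 1 to RARdn 2 was 5.40, with quartiles of 2.28 and 7.16. The ratios ran from 0.633 for Fetub to 15.1 for Saa4. Both ends rest on few counts, 7 and 12 for Fetub and 111 and 8 for Saa4 in RARdn 1 and 2. Of the 37, 34 stayed below 1 CPM in every control and 18 were at 0 counts in RARdn 3. The rule that picked the 37 asks for lower levels in those libraries, so these numbers are a description only. Among the enzymes was Cps1, the first enzyme of the urea cycle, with 640, 68 and 0 counts in RARdn 1, 2 and 3 and 2 to 8 in controls. A group of 5 listed genes, A1bg, Cyp2c29, Cyp4a14, Mug1 and Serpina3k, had no count in any of the 6 libraries, which allows up to 0.0114 CPM over all libraries. Apoc3 and Apoa4, which neighbour Apoa1 in the apolipoprotein cluster of chromosome 9, had 5 and 0 counts in RARdn 1, where Apoa1 had 3986. Apoa4 overlaps antisense genes in 69.8% of its exon bases, and Apoc3 overlaps none.

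**Figure D4:**
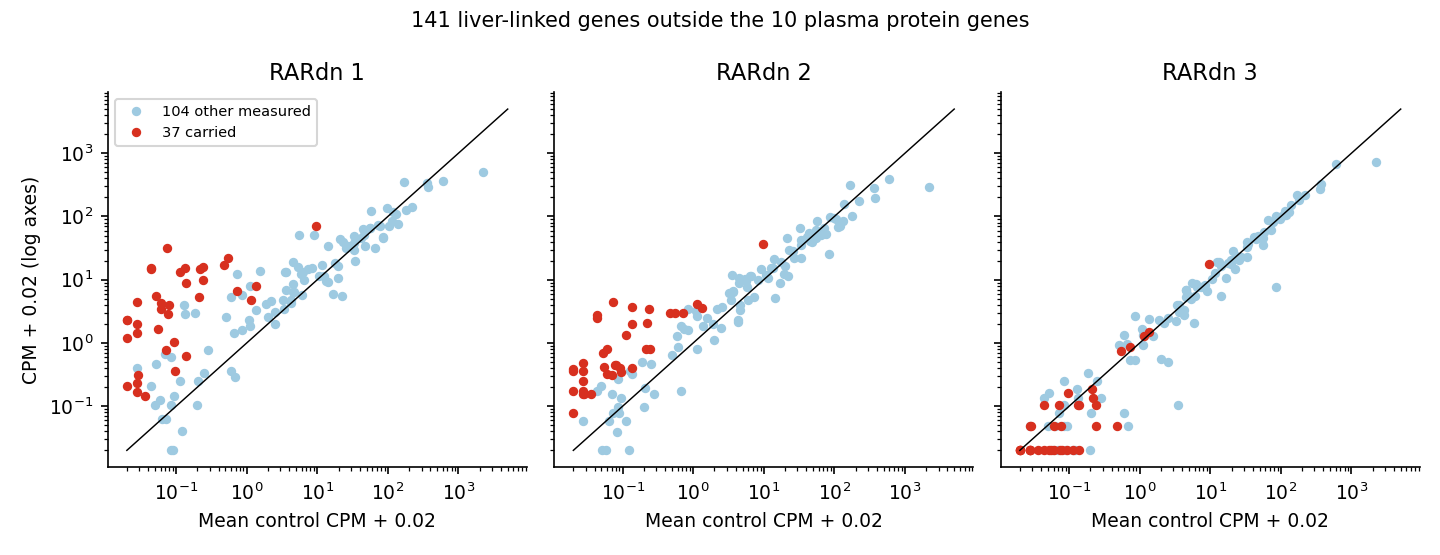
Each point is 1 of 141 liver-linked genes outside the 10, with its mean CPM in the 3 controls (horizontal) against its CPM in RARdn 1, RARdn 2 or RARdn 3 (vertical); both axes are logarithmic after adding 0.02, and the line marks equality. The 37 genes in red lie above the line in RARdn 1, most of them far above it at low control levels, less far above it in RARdn 2, and near or below it in RARdn 3.

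The other 104 measured liver-linked genes included those with the highest levels, and they did not follow the 10 genes. Summed, they were at 5474 to 7317 CPM in controls and at 4248, 3628 and 4477 CPM in RARdn 1, 2 and 3. Ambp, the precursor gene of alpha-1-microglobulin and bikunin, was at 351, 385 and 358 CPM in controls and at 341, 278 and 270 CPM in RARdn 1, 2 and 3. Hnf4a, a transcription factor of the hepatic programme, was likewise read in every library, at 68.6 to 83.1 CPM in controls and at 69.6, 52.9 and 83.0 CPM in RARdn 1, 2 and 3.

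The test of RARdn against control was run over all genes and read for the liver-linked genes, leaving out the 10 that had been chosen on this contrast. By edgeR's quasi-likelihood test with Benjamini-Hochberg adjustment over 19070 genes, 4 of 97 tested liver-linked genes rose and 2 fell, or 6 in all, where 4.02% of all genes tested passed (1.37% higher and 2.65% lower). By list, 2 of 22 carriers and inhibitors fell, 2 of 14 acute phase and complement genes rose, and 1 of 22 enzymes and 1 of 23 transcription factors rose. Of 12 lipoprotein genes and 4 Serpina1 paralogs none was called by edgeR, where 3 and 2 had an unadjusted p under 0.05; DESeq2 called Apoc1 and Apoe of the former and Serpina1d of the latter. With sex, as read from Xist, added as a term, edgeR called 0 of the 97, of which 22 had an unadjusted p under 0.05, and 61 genes in all in place of 767; the 6 genes kept their direction, with an adjusted p of 0.12004 to 0.410. Control 2 was the only control of the sex of the RARdn libraries, so the loss of calls cannot decide what part sex had. For each of the 6 genes control 2 lay on the same side of all 3 RARdn libraries as the other controls. Its level was 8.52 CPM for C3 (RARdn 17.5 to 70.8), 22.4 CPM for Hhex (28.9 to 45.2) and 1465 CPM for Serpina6 (292 to 721). The part of sex in these calls was not otherwise tested. The median log2 fold change was 0.87 for carriers and inhibitors, 1.11 for the paralogs, 0.22 for lipoprotein genes, 0.80 for acute phase and complement genes, 0.16 for enzymes and -0.08 for transcription factors, against 0.00051 over all genes tested. C3, the central complement protein, rose from 9.596 ± 1.32 to 41.7 ± 27.0 CPM (SD, n = 3 each, log2 fold change 2.002, SE 0.33, adjusted p = 0.0173, edgeR). It was at 70.8, 36.8 and 17.5 CPM in RARdn 1, 2 and 3, all above the 8.52 to 11.1 CPM of the controls. C8b, a chain of the membrane attack complex, rose from 0.824 ± 0.371 to 3.94 ± 1.63 CPM (log2 2.19, SE 0.36, adjusted p = 0.0175, edgeR), and RARdn 3 also lay above every control at 2.67 CPM. C3 was not called by edgeR without control 1, 2 or 3 or without RARdn 2 (adjusted p = 0.0520, 0.0703, 0.0604 and 0.0652), nor C8b without control 2 or RARdn 2 (adjusted p = 0.0732 and 0.0609).

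Sardh, the sarcosine dehydrogenase of mitochondria, rose from 14.1 ± 1.07 to 23.7 ± 8.85 CPM (log2 0.68, SE 0.15, adjusted p = 0.0454, edgeR). Hhex, a transcription factor of the liver bud that also serves the pancreas, rose from 21.1 ± 1.11 to 39.4 ± 9.06 CPM (log2 0.86, SE 0.13, adjusted p = 0.0160, edgeR). In F10, the gene of clotting factor X, the level dropped from 14.3 ± 1.005 to 6.57 ± 2.25 CPM (edgeR, adjusted p = 0.0126, log2 -1.18, SE 0.16). Serpina6, for corticosteroid-binding globulin, dropped from 2227 ± 1234 to 507 ± 215 CPM (edgeR, adjusted p = 0.0454, log2 -2.12, SE 0.47). Its levels were 3650, 1465 and 1565 CPM in controls, against 509, 292 and 721 CPM in RARdn 1, 2 and 3. The edgeR call of F10 was lost without control 2 (adjusted p = 0.0539) and that of Hhex without control 1, 2 or 3 (0.0532, 0.0597 and 0.0557). Sardh and Serpina6 were not called without any 1 library other than RARdn 3, with an adjusted p of 0.0505 to 0.158 and of 0.0757 to 0.121. Of these 6 genes only C3 showed the pattern of the plasma protein genes, with a RARdn 1 to RARdn 2 ratio of 1.92.

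Among abundant liver-linked genes that were not called, Apoe was at 168 ± 49.6 CPM in controls and 297 ± 70.7 CPM in RARdn (log2 0.77, SE 0.21, adjusted p = 0.0772, edgeR), and Serpina1b at 9.01 ± 2.98 and 23.9 ± 23.1 CPM (log2 1.24, SE 0.53, adjusted p = 0.216, edgeR). The filter on low counts kept 97 liver-linked genes and left out Fga, Fgg, Itih3 and Apoh among others, whose counts stood almost only in RARdn 1 and RARdn 2, and without it 52 were called, 46 of them higher. Leaving out RARdn 3 gave 59 calls, 46 of them higher, and leaving out control 2 gave 0 of 119 by edgeR, of which 50 had an unadjusted p under 0.05.

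The genes whose profiles were most like the sum of the 10 were sought among 104 others that reached 5 CPM and ranged over at least 3 log2 units. Likeness was Pearson's r of log2(CPM + 0.5) over the 6 libraries, which is set mostly by RARdn 1 and RARdn 2 and is given as a description. The 10 highest, with predicted genes (Gm and Rik symbols) left out and r from 0.974 to 0.998, included Fgg, Itih3, Fga, Apoh, Kng1, Itih4, Plg, Hand1 and Serpinc1. Of the 10, 9 stood on the liver-linked lists, among them genes of fibrinogen chains, inter-alpha-trypsin inhibitor heavy chains, apolipoprotein H, kininogen, plasminogen and antithrombin. Those lists were chosen with earlier results of these data known. Among the 104 candidates, 52 were highest in RARdn 1, and 19 of these stood on the lists. Hand1, a transcription factor of heart, trophoblast and sympathetic neurons, was the exception, with 10, 9 and 7 counts in controls and 306, 84 and 18 in RARdn 1, 2 and 3. Among the 10 genes themselves r ran from 0.856 (Fgb with Pzp) to 0.994 (Alb with Ahsg), with a median of 0.949 over 45 pairs.

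Markers of other cells that a dissection could hold were read beside these values. Of 13 hepatocyte markers, 4 are among the 10 genes and so carry the choice made on this contrast. The other 9 summed to 73.2 to 89.2 CPM in controls, against 172, 74.2 and 90.1 CPM in RARdn 1, 2 and 3, so the sum in RARdn 2 was not above the controls. Most of it was Hnf4a, which the pancreas also expresses, and the remaining markers summed to 4.67 to 7.08 CPM in controls, against 102, 21.3 and 7.09 CPM. Of the 9, 5 were at least 2-fold higher in both RARdn 1 and RARdn 2 than elsewhere, and Fga, Fgg and Cps1 were at 0 in RARdn 3. Slc10a1, the bile acid transporter of hepatocytes, went the other way, at 0.415 to 1.10 CPM in controls and at 0.271, 0.154 and 0.0284 CPM in RARdn 1, 2 and 3. The fetal liver also makes red cells, and 16 of 19 listed erythroid genes were highest in RARdn 1, where 48.0% of all 25200 genes were. The erythroid sum did not follow the same order, at 4010 to 5550 CPM in controls, against 5876, 3209 and 4922 CPM in RARdn 1, 2 and 3. Slc4a1, the red cell anion exchanger, was at 13.6 to 18.4 CPM in controls and at 99.4, 20.4 and 20.6 CPM in RARdn 1, 2 and 3, and Rhag, of the Rhesus complex, at 0.156 to 0.338 CPM and at 4.44, 0.538 and 0.482 CPM. The edgeR test called none of 18 erythroid genes, 4 of which passed 0.05 unadjusted, and DESeq2 called Hbb-bh1, Klf1 and Rhag. Hbb-bs and Hba-a1, globin genes with near-identical copies and so uncertain, had an edgeR adjusted p of 0.967 and 0.624.

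Of the 4 markers of liver endothelium and macrophages, Clec4f had 5 and 2 counts in RARdn 1 and 2 and 0 in the others. Their sum was 20.7 to 34.7 CPM in controls, against 51.7, 52.4 and 29.5 CPM in RARdn 1, 2 and 3. Most of it was Lyve1, at 18.4 to 31.3 CPM in controls and at 44.1, 44.9 and 25.4 CPM in those RARdn libraries. Stab2 was at 1.27 to 1.94 CPM in controls and at 4.17, 2.52 and 2.18 CPM in RARdn. Fcna was at 0.970 to 1.45 CPM and at 3.36, 4.92 and 1.87 CPM. In the list of liver stroma and endothelium edgeR called 1 of 10 tested genes, where 5 had an unadjusted p under 0.05. DESeq2 called Cxcl12, Fcna, Lyve1 and Stab2 of this list, all higher in RARdn. Cxcl12, a chemokine of many stromal cells, rose from 123 ± 13.3 to 216 ± 69.6 CPM (log2 0.75, SE 0.15, adjusted p = 0.0342, edgeR). Its edgeR call was lost without control 1, 2 or 3 or RARdn 2 (edgeR adjusted p = 0.0714, 0.147, 0.139 and 0.0955) and with sex as a term (0.353). Among intestinal markers, Cdx1 and Cdx2, which define the intestinal epithelium, had at most 3 counts in any library. The sum of 6 was 49.2 to 59.0 CPM in controls, against 34.4, 27.7 and 45.6 CPM in RARdn 1, 2 and 3. Most of this sum was Vil1, at 33.4, 26.5 and 45.1 CPM in those RARdn libraries, so it cannot show whether the other markers followed. These were low, at 0.668 CPM or less in every library. Fabp2 had 17, 4 and 0 counts in RARdn 1, 2 and 3, against 1 to 4 in controls. Cdh17 had 32, 23 and 7 (controls 3 to 16), and Isx had 2, 33 and 7 (controls 3 to 11). The 5 yolk sac endoderm markers summed to 365 to 394 CPM in controls and to 351, 315 and 365 CPM in RARdn 1, 2 and 3, most of it Ttr, which islet cells also express. With all 6 libraries and the filter on low counts, edgeR called no gene of the intestinal, yolk sac or acinar lists among 10, 11 and 20 tested, where 1, 3 and 0 lay below 0.05 before adjustment, and DESeq2 called none. The edgeR fit without the filter called Dab2. Without RARdn 1 edgeR called Amn, Krt20, Amy2a5, Cela2a, Cpb1, Rnase1 and Try4, and without RARdn 3 Anpep, Vil1, Dab2 and Bhlha15. The part of liver tissue, of the low acinar share of RARdn 1 of sex or of the genotype in the levels of the 10 genes was not tested, and the labels give no tissue other than pancreas.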

How the data were processed

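The authors deposited raw counts of reads for each gene in a separate table for every sample, with 54735 gene symbols and 5 summary lines that were kept out of library totals and held 25.4% to 31.5% of reads. FastQC, cutadapt, HISAT2, HTSeq, bedtools and DESeq2 and the builds mm10 and GRCm38 were named per the submitters' processing notes; the sources used here do not give versions, annotation or strand setting, so reads of overlapping genes cannot be told apart. CPM are counts over the library's gene total, not scaled further. Positions, exon lengths, overlaps and shared 50-base stretches come from GENCODE M21 (GRCm38), whose annotation may differ from the authors'. RARdn was compared with control by edgeR 4.0.16 in R 4.3.3 (filterByExpr, TMM, glmQLFit, glmQLFTest, 2-sided, genotype as the only term), called at an adjusted p under 0.05; each SE is the size of the log2 fold change divided by the root of the F statistic. Intervals are exact (Poisson or Clopper-Pearson, 95%, scipy 1.17.1) and cover counting error only, since reads carry no molecular identifiers. DESeq2 1.42.0, limma-voom 3.58.1, RLE scaling, no filter, a replicate block and each library left out were alternatives. RARdn 3 alone and a term for sex, read from Xist since the labels give none, were added after seeing the data. The members and lists were chosen with earlier results of these data known. Of the listed symbols, 4 matched no gene. The text names all 10 genes and draws other names from up to 4 called genes of each list filled up to 2 with the most abundant, and the 10 most similar profiles, some of which are not reported here; other names were chosen after their values were seen. No library was a copy of another (chi-square per degree of freedom 13.8 or more within groups).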

Additional observations from a re-analysis of the deposited data

How the results depend on the processing

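The log2 ratio of the summed level of the 10 genes, 4.63, ran from 2.61 to 5.19 with 1 library left out and was -0.036 with RARdn 3 alone over the controls. RARdn 3 alone also lay on the other side for Apoa1 (-0.0040), Fgb (-2.97), Serpina1a (-0.31) and Trf (-1.45), and Apoa2 and Apob, at 0 counts there against 32.4 and 5.47 expected from the controls, lay below them too, so 6 genes did. The share of Alb in the counts of the 10 genes, 46.2% in RARdn 1 and 46.8% in RARdn 2, was 46.7% in RARdn 1 per kilobase and 46.9% and 50.6% with the mean control level taken off. Of the 10 most similar genes, 5 remained with an offset of 0.1 CPM and 2 with Spearman's rho. Over all genes, 767 calls became 2346 without a filter on low counts, 2276 with DESeq2 and 100 to 2980 with 1 library left out. For liver-linked genes, 6 calls became 52 without the filter, 29 with DESeq2 and 0 to 59 with 1 library left out. For the companion lists of other cell types, 1 call became 8, 7 and 0 to 10, the 0 arising without any 1 control or RARdn 2, where edgeR gave 9 to 15 genes an unadjusted p under 0.05. With sex by Xist as a term, calls were 61 over all genes, 0 for liver-linked genes (22 with an unadjusted edgeR p under 0.05) and 0 for the companion lists (7). The cause of these moves was not tested. For same-numbered samples of the groups, deviations from the group mean had r of 0.015, -0.083 and 0.20, against -0.17 to 0.21 for the other pairs. Such values cannot decide whether the numbers pair the samples, and the labels do not say. With the replicate block 13 liver-linked genes were called. At this depth a gene listed at 0 could have been at up to 0.0577 to 0.0851 CPM, by library.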

Other observations

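Outside the 10 genes, 104 genes reached 5 CPM and ranged over at least 3 log2 units, and 52 of them were highest in RARdn 1, of which 19 stood on the liver-linked lists. Genes of other kinds, picked here after their values were seen, differed in how far RARdn 2 shared the excess. Dbh, the enzyme that makes noradrenaline, had 4, 3 and 1 counts in controls and 679, 2 and 5 in RARdn 1, 2 and 3. Slc6a2, the noradrenaline transporter, had 5, 0 and 0 counts in controls and 592, 2 and 4 in RARdn 1, 2 and 3. Th, the first enzyme of catecholamine synthesis, had 68 to 87 counts in controls and 595, 52 and 39 in RARdn 1, 2 and 3. These sympathetic and adrenal genes were high in RARdn 1 alone. Ngp, a neutrophil granule gene, had 45 to 75 counts in controls and 1046, 149 and 80 in RARdn 1, 2 and 3. In CPM it was at 1.02 to 1.89 in controls and at 21.8, 2.86 and 2.27 in RARdn, so RARdn 2 lay close to RARdn 3. Car3, a carbonic anhydrase of muscle, fat and liver, had 1 to 3 counts in controls and 298, 40 and 3 in RARdn 1, 2 and 3. Slc27a2, a fatty acid transporter of liver and kidney, had 3 to 14 counts in controls and 240, 25 and 2 in RARdn. Its RARdn 2 level was 0.481 CPM, not far above the 0.0778 to 0.316 CPM of the controls. The ratio of RARdn 1 to RARdn 2 was 8.09 for Car3, 10.4 for Slc27a2 and 7.62 for Ngp.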
